A study of Homo sapiens with 12 samples.

Results

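The replication origin and fork machinery taken here is a set of 34 genes, chosen by symbol: the subunits of the MCM2-7 helicase, the factors that load and activate it, DNA polymerase and primase subunits, the sliding clamp and its loader, the enzymes that join Okazaki fragments, and chromatin and checkpoint factors that travel with the fork. All 34 were found in both count tables, among 16820 genes for MOLM-13 and 17099 for OCI-AML2. MOLM-13 and OCI-AML2 are established human acute myeloid leukaemia (AML) cell lines. Each was cultured for 36 h with selinexor, an inhibitor of the nuclear export receptor XPO1, or with vehicle (DMSO), and polyadenylated RNA was sequenced in 3 libraries per group, 12 in all. The groups were MOLM-13 with 75 nM selinexor, MOLM-13 with vehicle, OCI-AML2 with 200 nM selinexor and OCI-AML2 with vehicle. The lines and doses differ together and cannot be told apart. The submitters describe the triplicates as biologically independent. Each condition was thus studied at 1 dose in 1 line, and the labels describe no animals or primary cells.

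Before a cell copies its DNA, the origin recognition complex, with CDC6 and CDT1, loads a double ring of MCM2-7 onto origins in G1 phase; this is licensing. In S phase, CDC45 and the GINS complex join MCM2-7 and turn it into the active helicase. Polymerase alpha with primase then lays primers, polymerases epsilon and delta extend the strands on the PCNA clamp, which the RFC complex loads, and FEN1 and LIG1 finish the lagging strand. Many of these genes are transcribed in a wave at the G1/S boundary, under E2F factors that the retinoblastoma protein family holds back in resting cells, and leukaemia lines in culture express them strongly because most of their cells are cycling.

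The promoters of the set are shown first. The genes were chosen by symbol and not by promoter sequence. Many of them are under E2F factors, as stated above, so the share with E2F-type words is not independent of that choice. RefSeq windows on GRCh38.p14, from 250 bases before the transcript start to 50 bases after it, were available for 30 of the 34 genes. MCM4, MCM5, GINS4 and POLD3 are named only. The windows were searched on both strands for the exact words TTTCCCGC, TTTCGCGC, TTTGCCGC and TTTGGCGC, and a word on 1 strand can overlap a word on the other. At least 1 word lay in the windows of 18 of 30 members (60%), against 6.88% of the 8836 genes tested in both lines that have windows and 3.99% of all 27305 genes with windows. The 4 helicase promoters MCM2, MCM3, MCM6 and MCM7 are printed because each holds a pair or more of these words. The CLSPN promoter is printed because CLSPN is the member that fell most in OCI-AML2. The CDC45 window is printed because CDC45 fell most in MOLM-13 and none of its 3 windows holds one of these exact words. The window printed does hold TTTGGCGG, which differs from TTTGGCGC only in its last base. The sequences read 5′ to 3′ on the gene's strand, and capitals mark the E2F-type words.
MCM2, chr3:127598161-127598460, plus strand: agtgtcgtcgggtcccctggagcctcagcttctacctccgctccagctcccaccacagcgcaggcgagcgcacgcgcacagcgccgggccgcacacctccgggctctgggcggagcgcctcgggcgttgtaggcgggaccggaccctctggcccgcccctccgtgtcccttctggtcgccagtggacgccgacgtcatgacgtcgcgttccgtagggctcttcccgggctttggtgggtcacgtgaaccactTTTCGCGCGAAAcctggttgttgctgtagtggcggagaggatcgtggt
MCM3, chr6:52284693-52284992, minus strand: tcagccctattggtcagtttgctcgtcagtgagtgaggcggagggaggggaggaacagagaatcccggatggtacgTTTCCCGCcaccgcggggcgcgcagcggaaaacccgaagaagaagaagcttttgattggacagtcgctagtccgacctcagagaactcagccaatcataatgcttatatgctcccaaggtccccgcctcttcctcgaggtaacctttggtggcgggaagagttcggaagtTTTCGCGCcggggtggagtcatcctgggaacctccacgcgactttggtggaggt
MCM6, chr2:135876394-135876693, minus strand: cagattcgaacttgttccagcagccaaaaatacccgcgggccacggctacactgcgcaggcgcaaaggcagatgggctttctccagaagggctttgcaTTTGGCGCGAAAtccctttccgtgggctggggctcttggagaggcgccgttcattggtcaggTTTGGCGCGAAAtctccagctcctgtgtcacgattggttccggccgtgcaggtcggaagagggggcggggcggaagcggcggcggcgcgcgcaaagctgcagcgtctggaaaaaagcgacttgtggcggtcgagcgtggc
MCM7, chr7:100101348-100101647, minus strand: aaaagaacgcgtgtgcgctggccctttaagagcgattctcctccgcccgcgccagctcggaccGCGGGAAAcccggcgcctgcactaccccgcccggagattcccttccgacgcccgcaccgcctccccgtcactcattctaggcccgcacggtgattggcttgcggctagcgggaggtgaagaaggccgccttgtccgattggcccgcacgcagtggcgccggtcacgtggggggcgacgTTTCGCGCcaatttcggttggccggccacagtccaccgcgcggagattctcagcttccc
CLSPN, chr1:35769929-35770228, minus strand: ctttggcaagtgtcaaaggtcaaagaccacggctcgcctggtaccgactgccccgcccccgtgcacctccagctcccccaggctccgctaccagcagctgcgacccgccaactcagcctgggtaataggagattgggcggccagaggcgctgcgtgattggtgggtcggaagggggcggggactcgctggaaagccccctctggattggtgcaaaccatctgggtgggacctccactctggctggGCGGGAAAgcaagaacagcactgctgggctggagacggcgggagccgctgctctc
CDC45, chr22:19479670-19479969, plus strand: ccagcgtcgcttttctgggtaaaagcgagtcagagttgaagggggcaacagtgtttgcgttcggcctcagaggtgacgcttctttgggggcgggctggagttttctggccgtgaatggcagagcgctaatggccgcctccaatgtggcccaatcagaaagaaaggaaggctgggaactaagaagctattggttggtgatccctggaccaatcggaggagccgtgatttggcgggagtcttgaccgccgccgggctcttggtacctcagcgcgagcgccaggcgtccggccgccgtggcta

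In MCM2 the words TTTCGCGC on the plus and minus strands overlapped, beginning 3 and 7 bases into the transcript. MCM3 had words beginning at -174 and -4 relative to the start. MCM6 had 2 overlapping pairs, at -152 and -148 and at -90 and -86. MCM7 had words at -187 and -9 in the window shown, and CLSPN had 1 word at -5 on the minus strand. The 4 helicase genes printed were the 4 members with at least 2 words in a window. A word is a match of letters and not a measured binding site, and no word says only that these letters are not in the window. Other motifs were searched for comparison. The CHR words TTTGAA and TTCGAA, which mark promoters of late cell cycle genes, lay in 1 of 30 members (3.33%, MCM6), against 15.4% of the genes tested in both lines. The CCAAT box lay in 60% of members and in 43.1% of the genes tested in both lines. The members were also split by these exact words. Windows of CDC45, MCM10 and CHAF1A, counted as without a word, hold TTTGGCGG on a strand, which differs from TTTGGCGC only in its last base. The split thus cannot separate promoters with and without E2F sites, and no conclusion on such sites is drawn from it. The median changes, described below, lay close together. In MOLM-13 the median log2 fold change was -1.27 for the 18 with a word and -1.23 for the 12 without. In OCI-AML2 it was -0.63 with and -0.65 without.

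Libraries held 8114892 to 9711704 counted reads with selinexor and 8160133 to 9444344 with vehicle in MOLM-13, and 8650518 to 9774423 with selinexor and 9506571 to 11769061 with vehicle in OCI-AML2. A count of 3 reads corresponds to between 0.255 and 0.370 CPM (reads counted for the gene, scaled by library size to a common total). Every member lay far above this floor, the lowest value being 5.65 CPM for POLA2 in a MOLM-13 selinexor library. The 6 genes used as markers of AML lines were above 5 CPM in every library of both lines. Of 12 markers of other cell types, those with a row in the count tables stayed at or under 2.34 CPM, except KRT8 in MOLM-13 and PECAM1 in both lines; 5 had no row for MOLM-13 and 6 none for OCI-AML2. KRT8 and PECAM1 there were higher with selinexor, in the libraries in which the members were lower. KRT8, a keratin of epithelial cells, averaged 24.2 ± 1.59 CPM with selinexor and 8.11 ± 0.34 CPM with vehicle in MOLM-13 (SD, n = 3 each; log2 fold change 1.57 ± 0.13 SE). PECAM1, an adhesion molecule of endothelial cells that leukocytes also carry, averaged 15.02 ± 0.60 CPM with selinexor and 8.49 ± 0.65 CPM with vehicle in MOLM-13 (0.82 ± 0.15), and 89.4 ± 1.36 CPM with selinexor and 54.0 ± 5.25 CPM with vehicle in OCI-AML2 (0.73 ± 0.065). Their part in the members' values was not tested. XPO1 itself, the target of the drug, was higher with selinexor, by a log2 fold change of 0.66 ± 0.035 (SE) in MOLM-13 and 0.63 ± 0.040 in OCI-AML2. The p21 gene CDKN1A, an inhibitor of cyclin-dependent kinases, was higher by 1.53 ± 0.040 and 1.49 ± 0.058.

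All 34 members fell with selinexor in both lines at an adjusted p under 0.05 (edgeR quasi-likelihood test, Benjamini-Hochberg over all genes tested). The background is large, since 31.8% of 11807 genes tested in MOLM-13 and 31.8% of 12086 in OCI-AML2 were also called lower. A further 31.8% in MOLM-13 and 31.3% in OCI-AML2 were called higher, or 63.6% and 63.1% called in all. The members stood further out in size than in call. Their median log2 fold change was -1.26 in MOLM-13, where the median over all genes was 0.01, and -0.64 in OCI-AML2, where it was -0.0016. In MOLM-13, 28 members were at least 2-fold lower, against 3.57% of all genes tested. In OCI-AML2 only MCM10, GINS2, RFC3 and CLSPN were, against 2.85% of all genes tested. All 34 members lay below the 10th percentile of log2 fold changes in MOLM-13 and 21 did in OCI-AML2. Below the 5th percentile lay 30 members in MOLM-13 and 9 in OCI-AML2. The 3 selinexor libraries were all below the 3 vehicle libraries for 34 members in MOLM-13 and 33 in OCI-AML2, with PRIM1 the exception; over all genes this held for 32.8% and 33.3%. All members together summed to 2711.5 ± 28.9 CPM with selinexor and 6215.7 ± 100 CPM with vehicle in MOLM-13 (SD, n = 3), or 43.6% of vehicle. In OCI-AML2 they summed to 3710 ± 32.4 CPM with selinexor and 5740 ± 66.0 CPM with vehicle, or 64.6%. In bulk RNA, fewer cells in S phase and less of these RNAs in each cell cannot be told apart.

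**Figure D1:**
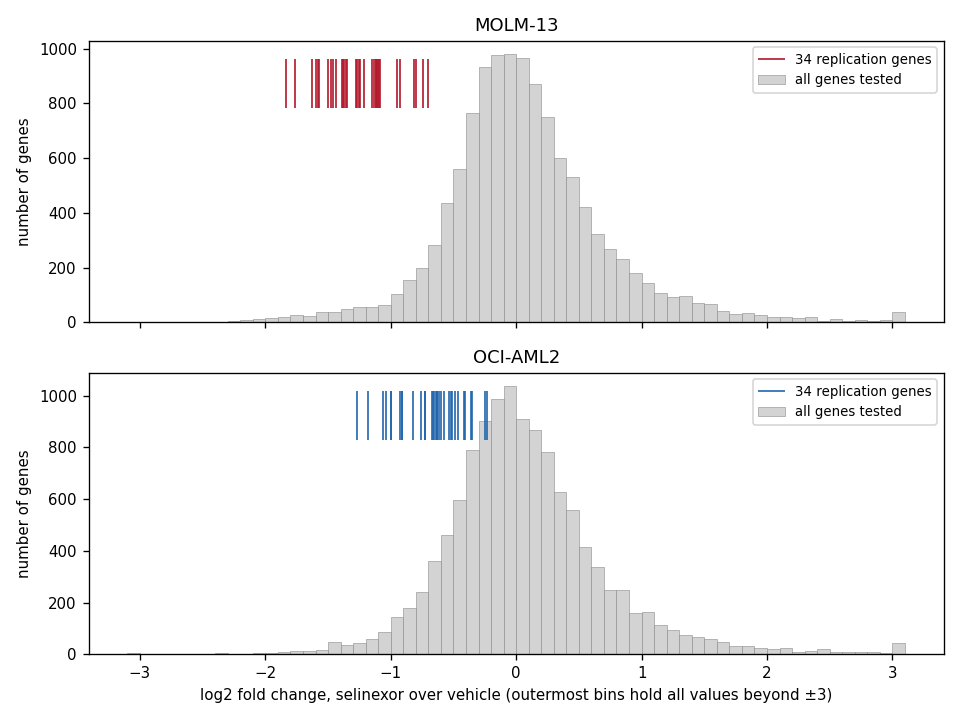
Histogram of log2 fold changes (selinexor over vehicle) of all genes tested in MOLM-13 (top) and OCI-AML2 (bottom), with the number of genes on the y axis and coloured ticks for the 34 replication genes. All ticks lie left of 0, with medians of -1.26 in MOLM-13 and -0.64 in OCI-AML2.

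The helicase genes MCM2 to MCM7 encode the 6 subunits of the ring that unwinds DNA ahead of the fork. All 6 fell to less than 50% of vehicle in MOLM-13 and to between 60.3% and 84.1% in OCI-AML2. Their sum was 1117.5 ± 9.06 CPM with selinexor and 2683.5 ± 30.1 CPM with vehicle in MOLM-13 (SD, n = 3), and 1869 ± 12.3 against 2776 ± 36.6 CPM in OCI-AML2. MCM4 fell most of the 6 in both lines. It had 255, 262 and 278 CPM with selinexor, against 692, 698 and 696 CPM with vehicle, in MOLM-13 (log2 fold change -1.39 ± 0.035, adjusted p = 3.8e-59). In OCI-AML2 it had 376, 380 and 366 CPM with selinexor, against 611, 635 and 615 CPM with vehicle (-0.73 ± 0.039). The groups were far apart in both lines, and libraries of a group differed little. MCM5 and MCM6 were the members of the ring that fell least in OCI-AML2. MCM6 had 307, 297 and 297 CPM with selinexor there, against 356, 363 and 353 CPM with vehicle (-0.25 ± 0.039, adjusted p = 4.8e-07). In MOLM-13 the same gene had 143, 142 and 142 CPM with selinexor, against 316, 291 and 305 CPM with vehicle (-1.10 ± 0.042). The groups did not overlap in either line. MCM5 had 121, 124 and 118 CPM with selinexor, against 308, 315 and 309 CPM with vehicle, in MOLM-13 (-1.36 ± 0.042). In OCI-AML2 MCM5 had 211, 210 and 209 CPM with selinexor, against 275, 270 and 264 CPM with vehicle (-0.36 ± 0.041). MCM2, MCM3 and MCM7 changed by -1.12 to -1.27 in MOLM-13 and by -0.63 to -0.64 in OCI-AML2. The 6 subunits thus spread over 0.30 on the log2 scale in MOLM-13 and over 0.48 in OCI-AML2. The libraries carry no strand, and exons of MCM2 share 1113 bases with an antisense gene and those of MCM7 392 bases with AP4M1, whose reads cannot be told apart from theirs.

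The licensing genes had a median log2 fold change of -1.47 in MOLM-13 and -0.66 in OCI-AML2, beside -1.26 and -0.64 over all members. ORC1, the origin-binding ATPase, had 26.0, 27.0 and 32.7 CPM with selinexor, against 81.6, 83.5 and 76.1 CPM with vehicle, in MOLM-13 (-1.50 ± 0.076). In OCI-AML2 ORC1 had 42.4, 42.6 and 40.1 CPM with selinexor, against 69.0, 68.4 and 68.9 CPM with vehicle (-0.72 ± 0.067). CDT1, which brings MCM2-7 to the origin, fell to 33.0% of vehicle in MOLM-13 and to 67.2% in OCI-AML2. Its levels were 64.9, 66.3 and 58.6 CPM with selinexor, against 198, 192 and 184 CPM with vehicle, in MOLM-13 (-1.59 ± 0.053). They were 93.2, 97.3 and 101 CPM with selinexor, against 135, 151 and 146 CPM with vehicle, in OCI-AML2 (-0.57 ± 0.053). CDC6, the ATPase that acts with CDT1, and ORC6, the smallest subunit of the origin complex, completed the group. CDC6 changed by -1.38 ± 0.073 in MOLM-13 and -0.60 ± 0.066 in OCI-AML2, and ORC6 by -1.44 ± 0.087 and -0.76 ± 0.077. The other subunits of the origin recognition complex did not share this size of change; they are not members and were singled out after their values were seen. ORC2 was not called in either line (-0.11 ± 0.083 in MOLM-13, adjusted p = 0.24; -0.18 ± 0.086 in OCI-AML2, adjusted p = 0.057). ORC3 and ORC5 fell in MOLM-13, by 0.43 and 0.44 on the log2 scale, and were not called in OCI-AML2.

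**Figure D2:**
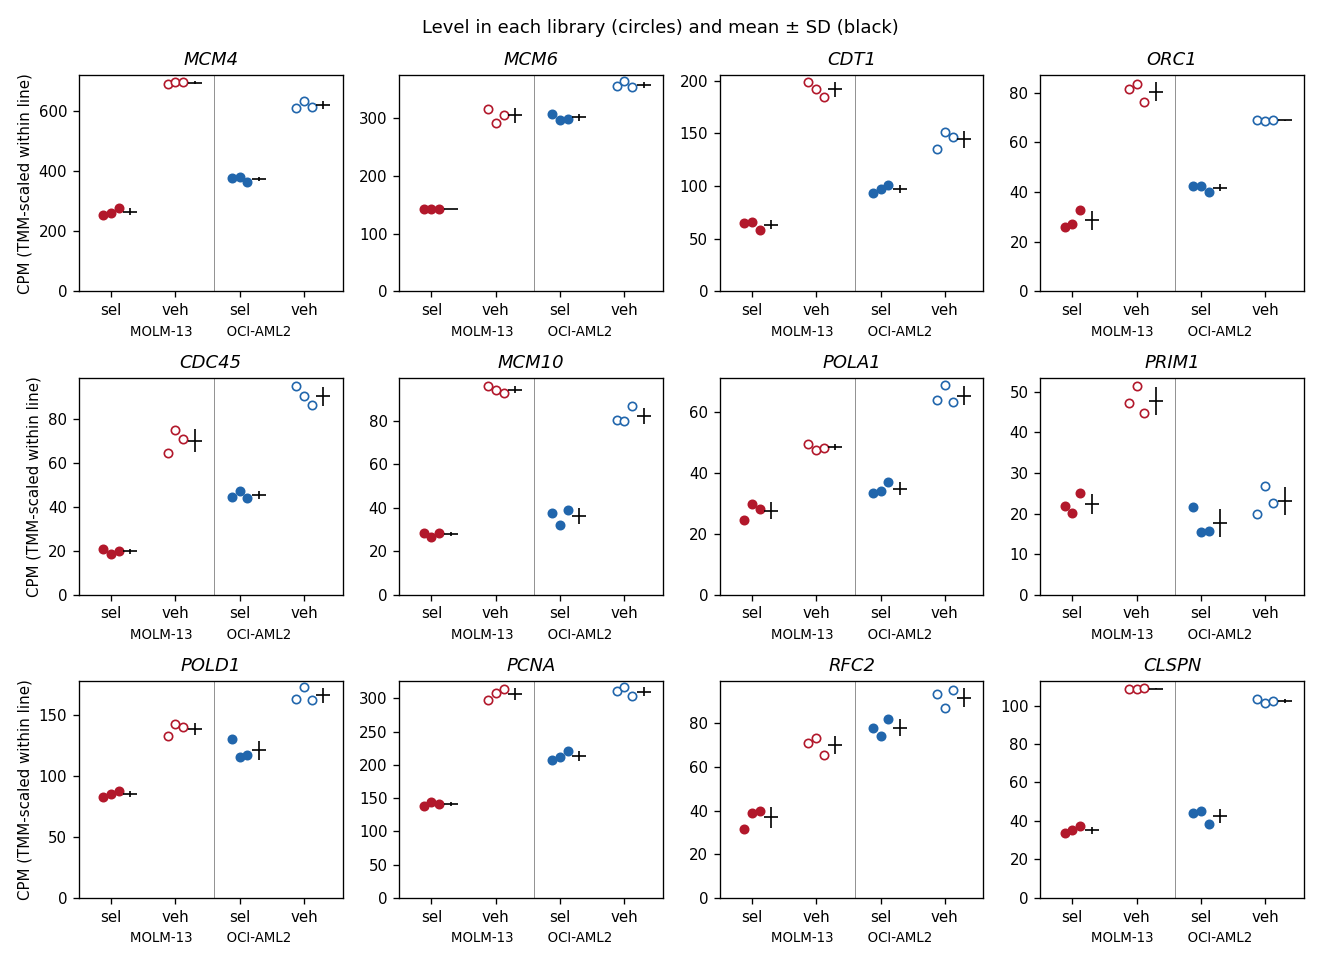
CPM (y axis, from 0) of 12 members in each library, with selinexor (filled circles) and vehicle (open circles), MOLM-13 in red and OCI-AML2 in blue; black bars are the mean ± SD of 3 libraries. The groups lie apart in every panel except PRIM1 in OCI-AML2, where 21.6 CPM with selinexor lies above 19.8 CPM with vehicle.

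The genes that convert the loaded ring into an active helicase had the largest median change of the roles, -1.58 in MOLM-13 and -0.997 in OCI-AML2. CDC45, the helicase cofactor, fell most of all members in MOLM-13, to 28.1% of vehicle. It had 20.8, 18.6 and 19.6 CPM with selinexor, against 64.4, 74.7 and 70.6 CPM with vehicle (-1.83 ± 0.084, adjusted p = 1.4e-37). In OCI-AML2 CDC45 had 44.2, 47.2 and 44.1 CPM with selinexor, against 94.6, 90.1 and 86.0 CPM with vehicle, or 50.1% of vehicle (-0.996 ± 0.065). MCM10, which takes part in activating the helicase and in starting synthesis, followed it. MCM10 had 28.5, 26.7 and 28.5 CPM with selinexor, against 96.4, 94.3 and 93.0 CPM with vehicle, in MOLM-13 (-1.76 ± 0.071). It had 37.8, 32.1 and 39.2 CPM with selinexor, against 80.6, 79.9 and 86.8 CPM with vehicle, in OCI-AML2 (-1.18 ± 0.072). Every vehicle library was at least 2-fold above every selinexor library of its line. The GINS genes encode the 4 subunits of a ring-shaped cofactor and kept close to each other in OCI-AML2, where GINS1, GINS2, GINS3 and GINS4 changed by -0.998, -1.04, -0.93 and -0.91. In MOLM-13 GINS1, GINS2 and GINS3 changed by -1.58, -1.57 and -1.48, and GINS4 by -1.15 ± 0.060. GINS4 had 51.8, 52.0 and 52.5 CPM with selinexor, against 114, 111 and 122 CPM with vehicle, in MOLM-13. Exons of GINS4 share 1159 bases with an antisense gene and those of GINS3 share 558.

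The polymerase and primase genes fell least, with medians of -0.81 in MOLM-13 and -0.46 in OCI-AML2. POLA1, the catalytic subunit of polymerase alpha, was the single member whose fall was not larger in MOLM-13. It had 24.5, 29.9 and 28.4 CPM with selinexor, against 49.6, 47.6 and 48.4 CPM with vehicle, in MOLM-13 (-0.81 ± 0.085). In OCI-AML2 POLA1 had 33.4, 33.97 and 37.2 CPM with selinexor, against 64.2, 69.1 and 63.3 CPM with vehicle (-0.91 ± 0.072). PRIM1, the catalytic subunit of primase, fell further in MOLM-13, with a difference between the lines of -0.74 ± 0.16 (adjusted p = 0.00018). In MOLM-13 it had 21.9, 20.1 and 25.1 CPM with selinexor, against 47.3, 51.5 and 44.7 CPM with vehicle (-1.10 ± 0.090). In OCI-AML2 it had 21.6, 15.5 and 15.7 CPM with selinexor, against 19.8, 26.7 and 22.7 CPM with vehicle (-0.40 ± 0.13, adjusted p = 0.0066). These groups overlapped, and the call was lost without selinexor library 2 (-0.32, adjusted p = 0.056) or 3 (-0.32, adjusted p = 0.064). POLA2, the accessory subunit of polymerase alpha and the lowest member in level, changed by -1.09 ± 0.15 in MOLM-13 and by -0.42 ± 0.14 in OCI-AML2. Its OCI-AML2 call was lost without selinexor library 1 (-0.35, adjusted p = 0.057), and 2012 of its exonic bases lie in another annotated gene on the same strand. POLE and POLE2, subunits of the leading strand polymerase epsilon, differed in size. POLE changed by -0.80 ± 0.052 in MOLM-13 and -0.35 ± 0.053 in OCI-AML2, and POLE2 by -1.28 ± 0.13 and -0.67 ± 0.11. POLD1, the catalytic subunit of polymerase delta, had the smallest fall of all members in MOLM-13, with 82.5, 84.9 and 87.3 CPM with selinexor, against 132, 142 and 140 CPM with vehicle (-0.71 ± 0.053). POLD3, an accessory subunit of the same enzyme, changed by -0.75 ± 0.076 in MOLM-13 and -0.49 ± 0.071 in OCI-AML2.

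PCNA, the sliding clamp, had 139, 145 and 141 CPM with selinexor, against 298, 309 and 315 CPM with vehicle, in MOLM-13 (-1.12 ± 0.041). In OCI-AML2 it had 208, 211 and 222 CPM with selinexor, against 311, 317 and 304 CPM with vehicle (-0.54 ± 0.041). The clamp loader subunits RFC2 to RFC5 fell unequally. RFC3 fell most of the 4 in both lines, by 1.38 ± 0.062 in MOLM-13 and 1.06 ± 0.072 in OCI-AML2 on the log2 scale. RFC2 fell least, with 31.5, 39.1 and 40.0 CPM with selinexor, against 71.2, 73.3 and 65.3 CPM with vehicle, in MOLM-13 (-0.92 ± 0.075). In OCI-AML2 RFC2 had 78.1, 74.2 and 81.9 CPM with selinexor, against 93.4, 86.9 and 95.1 CPM with vehicle (-0.23 ± 0.060, adjusted p = 8e-04), the smallest fall of all members there. The RFC2 groups were close together in OCI-AML2 but did not overlap. RFC4 and RFC5 changed by -1.11 and -1.24 in MOLM-13 and by -0.64 and -0.65 in OCI-AML2. FEN1, the flap nuclease, and LIG1, the ligase that seals Okazaki fragments, changed by -1.22 ± 0.058 and -1.35 ± 0.059 in MOLM-13. Both fell less in OCI-AML2, by 0.62 ± 0.055 and 0.51 ± 0.056. Annotated pseudogenes named after PCNA, RFC3, RFC5 and FEN1 had no row in either count table. Reads could in principle be split between copies, which was not tested.

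Of the chromatin and checkpoint genes, CLSPN fell most. CLSPN encodes claspin, the adaptor through which ATR activates CHK1 at stalled forks. It had 33.6, 35.0 and 37.1 CPM with selinexor, against 109, 108 and 109 CPM with vehicle, in MOLM-13 (-1.63 ± 0.066). In OCI-AML2 it had 44.1, 45.0 and 38.6 CPM with selinexor, against 103, 101 and 103 CPM with vehicle (-1.27 ± 0.065, adjusted p = 5.1e-21). The highest CLSPN value with selinexor in either line, 45.0 CPM, lay far below the lowest with vehicle, 101 CPM. UHRF1, which recruits the maintenance methyltransferase DNMT1 to newly copied DNA, differed little between the lines in the size of its fall. It had 493, 469 and 455 CPM with selinexor, against 905, 914 and 920 CPM with vehicle, in MOLM-13 (-0.95 ± 0.033). In OCI-AML2 UHRF1 had 276, 286 and 289 CPM with selinexor, against 490, 504 and 508 CPM with vehicle (-0.82 ± 0.039). CHAF1A and CHAF1B encode subunits of the histone chaperone CAF-1 and differed from each other. CHAF1A changed by -1.13 ± 0.050 in MOLM-13 and -0.66 ± 0.055 in OCI-AML2, while CHAF1B changed by -1.46 ± 0.096 and -0.52 ± 0.077.

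**Figure D3:**
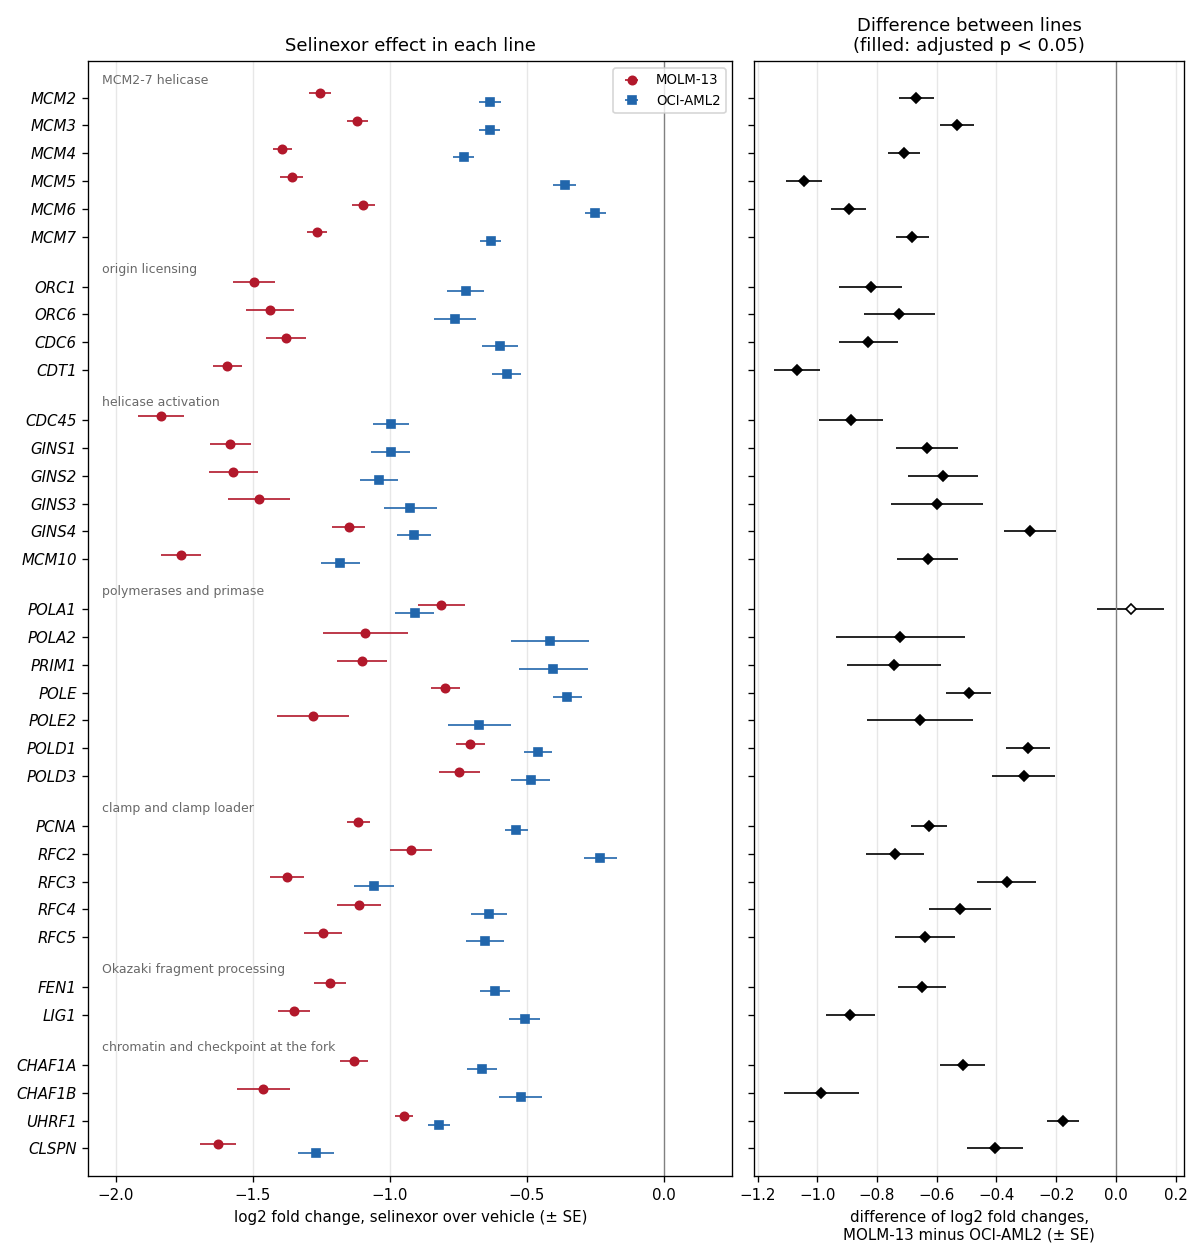
Left, log2 fold change of selinexor over vehicle (x axis, ± SE) of each member in MOLM-13 (red circles) and OCI-AML2 (blue squares), ordered by role; right, the difference of these log2 fold changes, MOLM-13 minus OCI-AML2, filled where its adjusted p was under 0.05. All values on the left are below 0, and on the right POLA1 alone is open, at 0.05.

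The fall was larger in MOLM-13 with 75 nM than in OCI-AML2 with 200 nM for 33 of 34 members, by an interaction test of line and treatment over the 12 libraries (edgeR, adjusted p under 0.05). Among all 12530 genes tested, 19% were called in this direction and 11.1% in the other. The count over all genes depended on single libraries: 2380 genes were called lower, 1542 without OCI-AML2 vehicle library 1 and 1450 without MOLM-13 vehicle library 2. The 1388 called higher became 2084 without OCI-AML2 vehicle library 2. The median difference over members was -0.64 on the log2 scale, and that over all genes was -0.04. CDT1 and MCM5 differed most, by -1.07 ± 0.076 (adjusted p = 3.3e-21) and -1.04 ± 0.059 (adjusted p = 3.8e-27). CHAF1B, MCM6, LIG1 and CDC45 followed, with differences of -0.99, -0.90, -0.89 and -0.89. UHRF1 and GINS4 differed least among the called members, by -0.18 ± 0.053 (adjusted p = 0.0068) and -0.29 ± 0.087 (adjusted p = 0.0071). POLA1 differed by 0.05 ± 0.11 (adjusted p = 0.79), which does not show that it changed alike. Without OCI-AML2 vehicle library 1, 2 or 3 or MOLM-13 vehicle library 2, the median difference over all genes became 0.048 to 0.052. That over members became -0.57 to -0.54 in the same runs. The call of 5 members was lost when single vehicle libraries were left out. UHRF1 and POLD3 lost it without OCI-AML2 vehicle library 1, 2 or 3 or MOLM-13 vehicle library 2, with differences of -0.07 to -0.10 (adjusted p = 0.19 to 0.37) and -0.18 to -0.24 (adjusted p = 0.096 to 0.24). GINS4 and POLD1 lost it without OCI-AML2 vehicle library 1 or 3 or MOLM-13 vehicle library 2, with differences of -0.16 to -0.22 (adjusted p = 0.062 to 0.19) and -0.18 to -0.19 (adjusted p = 0.057 to 0.077). RFC3 lost it without OCI-AML2 vehicle library 2 or 3 (-0.24 for each, adjusted p = 0.054 and 0.061). With upper quartile scaling the difference was -0.12 for UHRF1 (adjusted p = 0.087) and -0.25 for POLD3 (adjusted p = 0.061), and with DESeq2 that of POLD3 was -0.27 (adjusted p = 0.075). Across the 34 members the log2 fold changes of the lines had a Pearson correlation of 0.59 (Spearman 0.60), and across 11202 genes tested in both 0.74; these describe genes measured in the same libraries, not independent points. The Pearson correlation of a member's log2 fold change with its log2 vehicle CPM was 0.10 in each line.

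E2F1, which encodes a transcription factor that drives this gene wave and is itself one of its targets, is a further gene in which the lines differed. It had 25.5, 24.3 and 22.6 CPM with selinexor, against 56.8, 60.9 and 53.9 CPM with vehicle, in MOLM-13 (-1.24 ± 0.084). In OCI-AML2 E2F1 had 53.9, 54.4 and 58.3 CPM with selinexor, against 61.5, 64.8 and 62.2 CPM with vehicle (-0.18 ± 0.066, adjusted p = 0.017). The difference between the lines was -1.11 ± 0.11 (adjusted p = 6.3e-15). The OCI-AML2 call was lost with upper quartile scaling (-0.12, adjusted p = 0.097), with DESeq2 (-0.18, adjusted p = 0.052), in the joint fit of 12 libraries (-0.14, adjusted p = 0.077) and without selinexor library 1 or 2 (-0.16 for each, adjusted p = 0.067 and 0.065). The part of E2F1 in the members' changes was not tested.

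The vehicle groups of the lines were compared with each other in the same fit. Vehicle MOLM-13 was higher than vehicle OCI-AML2 for 18 of 34 members and lower for 9, and 7 were not called. Over all genes 71.2% were called, 35% higher and 36.2% lower. The members' share called in either direction lay near that of all genes. By direction, more members were called higher than lower, whereas the 2 shares over all genes were close to each other. The count of 18 became 11 without MOLM-13 vehicle library 3, and the calls of MCM7, ORC6, GINS1, GINS4, POLA2, POLD3 and CLSPN were each lost without that library or another. PRIM1 had the largest difference, 1.08 ± 0.10 on the log2 scale, or 2.11-fold higher in MOLM-13. UHRF1 followed at 0.90 ± 0.037, and RFC3 and CHAF1A were both at 0.66. At the other end POLA1 was lower in MOLM-13 by a log2 difference of -0.40 ± 0.072, RFC2 by -0.36 ± 0.064 and MCM3 by -0.35 ± 0.038. The median over members was 0.12. Exons of PRIM1 share 362 bases with another annotated gene and 33 with NACA, both on the same strand, and 132 with HSD17B6 on the opposite strand. Reads from these bases cannot be told apart, and their part in the difference of PRIM1 was not tested.

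Levels of different genes were compared per exon length, as counts per kilobase of annotated exon scaled to the same total in each library. On this scale PCNA was the highest member in both lines, with 355 ± 6.38 with selinexor and 796 ± 24.5 with vehicle in MOLM-13, and 515 ± 12 with selinexor and 829 ± 26.1 with vehicle in OCI-AML2 (SD, n = 3). POLA2 was the lowest, with 4.67 ± 0.99 with selinexor and 10.2 ± 1.13 with vehicle in MOLM-13, and 5.65 ± 0.64 and 8.38 ± 0.36 in OCI-AML2. UHRF1 ranked second in MOLM-13 and MCM7 second in OCI-AML2, in both treatments. On this scale, subunits of 1 complex were not at 1 level. MCM7 exceeded MCM5 by 3.77-fold with selinexor and 3.54-fold with vehicle in MOLM-13, and by 3.20-fold and 3.85-fold in OCI-AML2. Within GINS, the highest subunit exceeded GINS3, the lowest, by 4.13-fold with selinexor and 3.32-fold with vehicle in MOLM-13, and by 3.49-fold and 3.78-fold in OCI-AML2. The clamp loader subunits were closer, with the highest over the lowest at 1.65-fold with selinexor and 1.97-fold with vehicle in MOLM-13, and 2.71-fold and 2.03-fold in OCI-AML2. Annotated exon length can exceed the length of the transcript expressed, which lowers such a level. MCM5 has the longest annotated exons of the ring, 7338 bases against 4386 for MCM7. The part of this length in the low level of MCM5 was not tested.

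**Figure D4:**
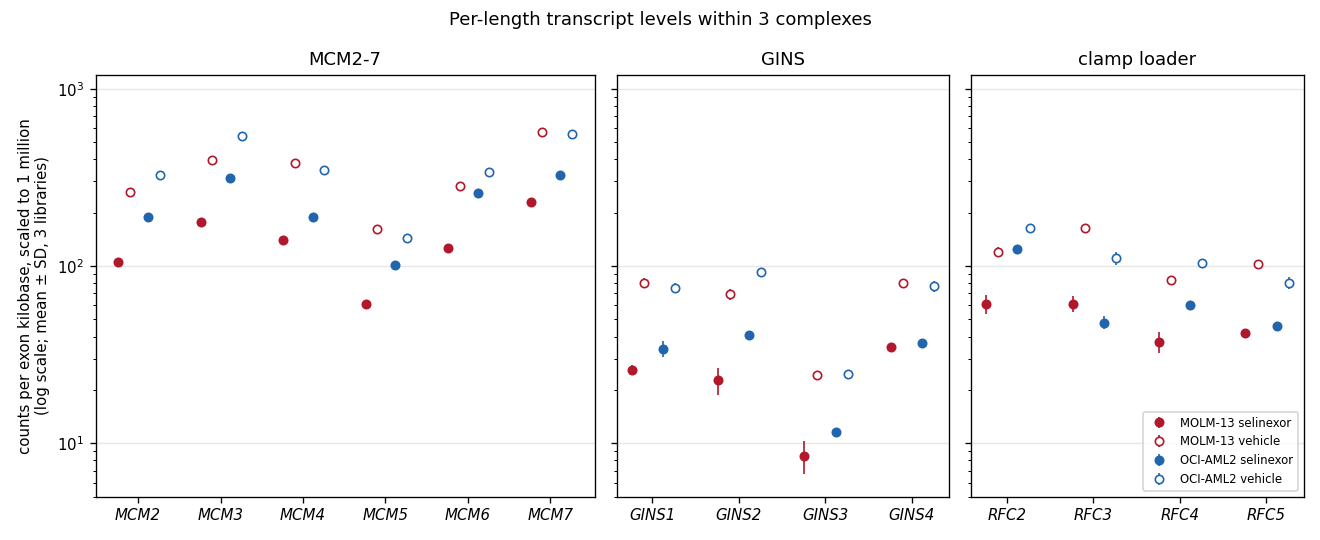
Counts per exon kilobase, scaled to the same total in each library (y axis, log scale; mean ± SD of 3 libraries) of the subunits of MCM2-7, GINS and the clamp loader, for MOLM-13 (red) and OCI-AML2 (blue) with selinexor (filled) and vehicle (open). Filled points lie below open ones of the same line throughout; MCM5 and GINS3 are the lowest of their complexes in all 4 groups.

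Beyond the 34, a list of 49 other replication genes was examined. In MOLM-13, 47 were tested, of which 41 fell, 2 rose and 4 were not called, with a median log2 fold change of -0.80 and 17 at least 2-fold lower. In OCI-AML2, 48 were tested, of which 39 fell, 1 rose and 8 were not called, with a median of -0.48 and 4 at least 2-fold lower. Read against the 31.8% of all genes called lower in each line, the falls were 41 of 47 and 39 of 48. GMNN, the inhibitor of CDT1, changed by -1.55 ± 0.070 in MOLM-13 and -0.80 ± 0.067 in OCI-AML2. TICRR, which helps load CDC45, changed by -1.33 ± 0.10 and -0.96 ± 0.078. PCLAF, a PCNA-binding protein, changed by -1.43 ± 0.074 and -0.98 ± 0.074, and LRR1, a ubiquitin ligase subunit that acts in unloading the helicase, by -1.25 ± 0.085 and -1.05 ± 0.085. The histone chaperone genes NASP and ASF1B changed by -1.32 and -1.53 in MOLM-13 and by -0.81 and -0.48 in OCI-AML2. DNMT1, TIMELESS, TONSL and POLE3 changed by -1.06, -1.14, -1.04 and -0.49 in MOLM-13 and by -0.70, -0.67, -0.65 and -0.67 in OCI-AML2. POLD4, the smallest subunit of polymerase delta, went the other way. It had 9.46, 7.82 and 6.75 CPM with selinexor, against 4.86, 3.17 and 2.93 CPM with vehicle, in MOLM-13 (1.15 ± 0.22). In OCI-AML2 POLD4 had 11.9, 10.2 and 11.9 CPM with selinexor, against 4.02, 2.49 and 5.11 CPM with vehicle (1.56 ± 0.19). These are low levels, but the groups did not overlap in either line. ORC4 rose in MOLM-13 (0.29 ± 0.10, adjusted p = 0.0094), a call that was lost without vehicle library 2 (0.18, adjusted p = 0.15), and was not called in OCI-AML2 (-0.07 ± 0.090).

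Genes of later cell cycle stages and of myeloid maturation moved in the same libraries. All 12 genes of a G2 and mitosis list fell in both lines, with medians of -1.92 in MOLM-13 and -1.47 in OCI-AML2, and their summed CPM was 27.3% and 37.7% of vehicle. MKI67, the proliferation marker, changed by -2.02 ± 0.042 in MOLM-13 and -1.49 ± 0.051 in OCI-AML2, and TOP2A, the topoisomerase of mitotic chromosomes, by -1.75 ± 0.041 and -1.39 ± 0.040. Of 16 myeloid maturation markers, 7 rose and 2 fell among the 12 tested in MOLM-13, and 10 rose and 3 fell among the 15 tested in OCI-AML2. The counts of both lists are to be read against all genes tested. Of these, 31.8% were called higher and 31.8% lower in MOLM-13, and 31.3% higher and 31.8% lower in OCI-AML2. The median log2 fold change of the markers tested was 0.65 in MOLM-13 and 0.82 in OCI-AML2. Summed over them, the level was 7041 to 7396 CPM with selinexor and 3796 to 3956 CPM with vehicle in MOLM-13, and 14684 to 15036 CPM with selinexor and 3910 to 4118 CPM with vehicle in OCI-AML2. In OCI-AML2 most of this sum came from LYZ, the lysozyme gene, at 9580.1 CPM with selinexor and 1735 CPM with vehicle, and AZU1, which encodes a granule protein, at 3192 CPM with selinexor and 898 CPM with vehicle (means, n = 3). Of the markers in MOLM-13, PRTN3, AZU1 and ELANE reached the highest levels, up to 2344, 1852 and 1832 CPM. CD14, S100A8 and S100A9 stayed at or under 0.25, 1.99 and 2.22 CPM there, and FCN1 had no row. FCGR1A, an Fc receptor gene on the list, was lowest in a selinexor library and highest in a vehicle library in both lines. Its range was 23.5 to 48.3 CPM in MOLM-13 and 69.2 to 107.7 CPM in OCI-AML2. Whether the rise of the listed markers reflects maturation was not tested in either line. The part of these changes in the members' values was not tested.

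In the authors' deposited table of MOLM-13 fold changes, which runs as vehicle divided by selinexor, all 34 members had positive log2 fold changes, between 0.72 and 1.85. With the sign turned, the authors' deposited table differed from the values above by at most 0.015.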

How the data were processed

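Per the labels' protocols, libraries were made from polyadenylated RNA without strand and read from both ends. The submitters' processing notes name STAR, the hg38 genome, R 3.6.1 and DESeq2. How reads were counted, and on which annotation, is not given in the sources used here. For each line, the authors deposited the raw count of every gene in every library. The signal values in the authors' deposited normalized tables equal these counts divided by 1 size factor per library and served only as a check. The authors also deposited log2 fold changes with adjusted p-values for MOLM-13. The initial of each table's name gave the line, and the letter of each column the treatment; the numbers given to libraries are names taken from column order.

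Counts were tested with edgeR 4.0.16 under R 4.3.3 (scaling by TMM, filterByExpr with minimum count 10 and minimum total count 15, robust quasi-likelihood fit, F test, Benjamini-Hochberg adjusted p under 0.05 over all genes tested). Each line was fitted alone, with 3 libraries a group. The difference between the lines and the contrast of the vehicle groups came from 1 fit of 12 libraries. SE is the size of the log2 fold change divided by the square root of F. CPM, the count as a share of the TMM-scaled library size, were computed within a line; the floor and the CPM limits given for marker lists use the unscaled total of counts instead. All 34 members passed the filter in both lines. Fits were also run on simulated counts, in which far fewer genes changed than were called here. That run thus does not cover changes as broad as these. No replicate pair held identical values (0 of 12). SD and SE cover these libraries only. The SE comes from a fit whose estimate of spread also draws on the other genes tested. The floor of 3 reads measures no spread.

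Alternatives were DESeq2 size factors, upper quartile scaling, no filter, DESeq2 1.42.0, limma 3.58.1 voom, a joint fit, and leaving out each library. Positions and exon lengths are from GENCODE 29 on GRCh38, matched by symbol (95.9% of symbols), and promoters from RefSeq on GRCh38.p14. The members, lists and words were chosen with earlier results of these data known. Text names every member; of the other replication genes it names the 10 with the smallest summed rank of p over the lines and those called against the list; it names ORC2, ORC3 and ORC5, chosen after their values were seen; and it names MKI67, TOP2A, CDKN1A, E2F1 and XPO1.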

Additional observations from a re-analysis of the deposited data

Results flagged for a closer look

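The items here are genes whose selinexor effect differed between the lines by the interaction test (edgeR, adjusted p under 0.05 over all genes tested). Each value is the difference of log2 fold changes, MOLM-13 minus OCI-AML2, so a negative value is a larger fall in MOLM-13. Line and dose cannot be told apart in this difference, and no cause was tested. In the helicase ring, MCM2, MCM3, MCM4, MCM5, MCM6 and MCM7 differed by -0.67, -0.53, -0.71, -1.04, -0.90 and -0.68. Among the licensing genes, ORC1, ORC6, CDC6 and CDT1 differed by -0.82, -0.73, -0.83 and -1.07. Of the helicase activators, CDC45, GINS1, GINS2, GINS3, GINS4 and MCM10 differed by -0.89, -0.63, -0.58, -0.60, -0.29 and -0.63. The polymerase and primase genes POLA2, PRIM1, POLE, POLE2, POLD1 and POLD3 differed by -0.72, -0.74, -0.49, -0.66, -0.29 and -0.31, while POLA1 was not called. For the clamp and its loader, PCNA, RFC2, RFC3, RFC4 and RFC5 differed by -0.63, -0.74, -0.37, -0.52 and -0.64. The Okazaki fragment enzymes FEN1 and LIG1 differed by -0.65 and -0.89. At the fork's chromatin and checkpoint, CHAF1A, CHAF1B, UHRF1 and CLSPN differed by -0.51, -0.99, -0.18 and -0.41. The calls of UHRF1, POLD3, GINS4, POLD1 and RFC3 were each lost when certain single vehicle libraries were left out, as given above. E2F1, which is not a member, differed by -1.11 ± 0.11.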

How the results depend on the processing

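No paired analysis was possible because the columns of the count tables carry no replicate numbers, so that no library of one group can be matched to a library of another. Of the 34 members' selinexor effects, 408 of 408 values under the alternatives kept their direction and call in MOLM-13 and 405 of 408 did in OCI-AML2, the others being PRIM1 and POLA2 without single selinexor libraries. For the difference between the lines, 558 of 578 kept both and 19 lost the call, in GINS4, POLD1, POLD3, RFC3 and UHRF1; the members called numbered 28 to 33 when 1 library was left out. Leaving out 1 library gave 1450 to 2236 genes called lower and 1228 to 2084 called higher for this difference over all genes, and 11 to 18 members higher in vehicle MOLM-13 than in vehicle OCI-AML2. Values near 0 that were not called changed sign: POLA1 ranged from -0.017 to 0.17 for the difference between the lines, and for the vehicle groups PCNA ranged from -0.036 to 0.044, CDC6 from -0.019 to 0.091 and FEN1 from -0.11 to 0.0066. The cause was not tested. Upper quartile scaling moved the members' median to -1.19 in MOLM-13 and -0.58 in OCI-AML2, and no scaling moved the median of all genes by more than 0.08. Leaving out 1 vehicle library moved the members' median difference between the lines from -0.64 to as far as -0.54. It moved that of all genes from -0.04 to as far as 0.052. Counts of members and of all genes called otherwise stayed within 1.5 times under every alternative run, while the other replication genes higher in MOLM-13 numbered 1 to 4 instead of 2. The 3 libraries a group limit the precision, most for POLA2, POLE2, PRIM1 and GINS3, the members with the largest SE for the difference between the lines.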
